A study of Homo sapiens with 16 samples.

Results

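The genes described here are 10 chaperones and proteases that work inside mitochondria, chosen by symbol from the 35106 gene rows of the count table: HSPD1, HSPE1, HSPA9, TRAP1, LONP1, CLPP, CLPX, YME1L1, AFG3L2 and OMA1. All 10 were found, and all 10 passed the filter on low counts in both cell lines. The list was drawn up with earlier results of these data known, and the question was whether the mitochondrial unfolded protein response moved when cells received MitoQ. RNA sequencing covered 16 libraries of 2 human breast cancer lines: 3 MitoQ and 3 control libraries of SKBR3 cells at passage 10, and 5 MitoQ and 5 control libraries of MDA-MB-231 cells at passage 25. SKBR3 carries an amplified ERBB2 gene, and MDA-MB-231 lacks the oestrogen receptor, the progesterone receptor and ERBB2 amplification and has mesenchymal traits. MitoQ, a quinone joined to a lipophilic cation that draws it into mitochondria, was given at 500 nM for 48 h. What the control cells received, and whether replicates came from separate cultures, is not given in the sources used here, so the p-values measure the spread between these libraries, which may be technical.

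Most mitochondrial proteins are made in the cytosol and threaded into the matrix unfolded. The HSP70-type chaperone HSPA9 pulls them in, and the chaperonin HSPD1 with its lid HSPE1 folds them in a closed chamber. TRAP1 is the HSP90-type chaperone of the matrix. Misfolded proteins are degraded by LONP1 and by the CLPX unfoldase with its CLPP peptidase in the matrix, and by YME1L1, AFG3L2 and OMA1 in the inner membrane. When unfolded protein builds up in mitochondria, cells can raise the transcription of such genes, a response in which ATF4, ATF5 and DDIT3 (CHOP) have been described in mammals.

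Totals ran between 14723152 and 29294865 estimated counts per library, so that a count of 0 allowed at most 0.10 to 0.20 CPM, the count scaled to the library's total. The 10 genes together held 0.211% to 0.254% of the counts of a library. The 6 SKBR3 markers summed to 10971.7 to 11352.7 CPM in SKBR3 MitoQ libraries and 9602.1 to 10829.5 CPM in SKBR3 controls, and to 903.5 to 1046.7 CPM in MDA-MB-231 MitoQ libraries and 858.9 to 912.4 CPM in MDA-MB-231 controls. The 6 MDA-MB-231 markers summed to 42.3 to 46.4 CPM in SKBR3 MitoQ libraries and 21.5 to 23.1 CPM in SKBR3 controls, and to 7732.6 to 8434.8 CPM in MDA-MB-231 MitoQ libraries and 7031.2 to 7444.4 CPM in MDA-MB-231 controls. Of the MDA-MB-231 markers, 4 were tested in SKBR3. There CD44 was 2.18-fold and CAV1 1.49-fold higher with MitoQ (edgeR adjusted p of 2.01e-07 and 0.0109), and 2 were not called. Of the 6 SKBR3 markers in MDA-MB-231, 3 were called higher, ESRP1 the most at 2.96-fold (4.64e-09), and 3 were not called. Of each line's own 6 markers, 2 were called higher and 0 lower in SKBR3, and 2 higher and 1 lower in MDA-MB-231. Of all genes tested, 13.8% were higher in SKBR3 and 29.9% in MDA-MB-231. The part of these shifts in the results was not tested. The 5 leukocyte markers stayed at or below 2.42 CPM in sum, with CD3E at 0 in the MDA-MB-231 MitoQ libraries, and the 5 fibroblast and endothelium markers at or below 7.54 CPM, with LUM at 0 in SKBR3. Transcripts encoded in mitochondrial DNA took 5.15% to 5.26% of counts in SKBR3 MitoQ libraries and 5.67% to 7.08% in SKBR3 controls, and 0.891% to 1.24% in MDA-MB-231 MitoQ libraries and 3.10% to 3.68% in MDA-MB-231 controls. With these genes left out of the fit, no call on the 10 genes within a line changed. SKBR3 control replicate 3 stood apart on the first principal component of its line, at -7.24, against -24.65 and -23.63 in the other SKBR3 controls and 15.89 to 21.22 in the SKBR3 MitoQ libraries. MDA-MB-231 MitoQ replicate 2 differed from the other MitoQ libraries of its line by a chi-square per gene of 16.4 to 21.7, against 3.28 to 11.8 among the other 4, and had the lowest mitochondrial share; without it no MDA-MB-231 treatment call on the 10 genes changed.

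HSPD1 (chr2:197486581-197516737, minus strand) and HSPE1 (chr2:197499994-197503457, plus strand) overlap as annotated by GENCODE 29 on GRCh38, and LONP1 lies at chr19:5691834-5720572 on the minus strand. The sequences shown lie upstream of RefSeq starts of these 3 genes. They are shown because these transcripts carry the main changes described below, and because HSPD1 and HSPE1 share the stretch between their starts. In RefSeq (GRCh38.p14) an HSPD1 start at position 197500274 and the HSPE1 start at 197500379 lie head to head, with 104 bases between them. The HSPE1 window is chr2:197500129-197500378 on the plus strand, with the 104 bases between the starts in capitals. All of it lies downstream of the start of the GENCODE transcript used for HSPE1, at 197499994. The HSPD1 window is chr2:197499841-197500090 on the minus strand, upstream of a further RefSeq start at 197499840, with a heat shock element, the site bound by heat shock factors, in capitals. The LONP1 window is chr19:5720147-5720396 on the minus strand, with the letters CACGTG, an E-box, in capitals.
HSPE1: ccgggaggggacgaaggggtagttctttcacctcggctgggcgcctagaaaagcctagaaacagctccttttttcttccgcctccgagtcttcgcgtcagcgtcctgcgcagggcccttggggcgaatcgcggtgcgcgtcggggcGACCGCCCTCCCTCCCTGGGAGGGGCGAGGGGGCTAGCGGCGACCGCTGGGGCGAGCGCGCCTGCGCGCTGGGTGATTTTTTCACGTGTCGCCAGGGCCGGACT
HSPD1: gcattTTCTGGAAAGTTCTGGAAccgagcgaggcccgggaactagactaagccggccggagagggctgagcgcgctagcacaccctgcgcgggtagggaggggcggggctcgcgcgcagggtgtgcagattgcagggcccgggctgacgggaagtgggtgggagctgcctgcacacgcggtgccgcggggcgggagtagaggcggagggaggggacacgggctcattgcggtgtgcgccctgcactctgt
LONP1: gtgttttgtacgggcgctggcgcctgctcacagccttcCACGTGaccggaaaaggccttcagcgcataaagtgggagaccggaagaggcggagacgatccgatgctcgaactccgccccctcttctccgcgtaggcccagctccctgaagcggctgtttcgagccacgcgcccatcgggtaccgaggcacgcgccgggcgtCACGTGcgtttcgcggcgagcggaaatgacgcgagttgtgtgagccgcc

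Of the 10 genes, 8 had a window in the RefSeq promoter table, which reaches from 250 bases before a start to 50 after it; CLPP and YME1L1 had none. A heat shock element, searched on both strands as 3 units of GAA and TTC in turn, each 2 bases from the next, lay in 172 of 35116 promoters (0.49%). Among the 8 genes only HSPD1 held it, in the printed window, where 2 such elements overlap; the GENCODE transcript used for HSPD1 starts 207 bases upstream of 197499840, so the element lies upstream of both those starts and downstream of the start at 197500274, whose own window held none. The element TGATGNAA, bound by pairs of C/EBP and ATF factors, lay in 3.62% of promoters and in 0 of the 8 genes. The letters CCAAT lay in 34.6% of promoters and in the window of CLPX. The E-box CACGTG, which was added after the sequences had been seen, lay in 7.26% of promoters and in windows of HSPD1, HSPE1, HSPA9 and LONP1. HSPD1 and LONP1 each had 2 windows, of which 1 held it, while the share of promoters counts single windows. HSPD1 and HSPE1 share 1 site, which lies between their starts. These matches describe letters in fixed windows and not bound sites.

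MitoQ moved a few of these genes, in different directions. In SKBR3, 1 of the 10 genes passed the test higher (LONP1), 5 passed it lower (HSPD1, HSPE1, HSPA9, YME1L1 and AFG3L2) and 4 did not pass (TRAP1, CLPP, CLPX and OMA1), where 28% of the 15026 genes tested passed in either direction, 13.8% higher and 14.1% lower. In MDA-MB-231, 3 passed higher (LONP1, HSPA9 and OMA1), 2 lower (HSPD1 and HSPE1) and 5 did not pass (TRAP1, CLPP, CLPX, YME1L1 and AFG3L2), where 57.5% of the 15304 genes tested passed, 29.9% higher and 27.6% lower. The median log2 change of the 10 genes was -0.10 in SKBR3, against -0.00064 over all genes tested, and 0.015 in MDA-MB-231, against 0.012 over all genes tested. A gene passed where its adjusted p lay under 0.05 in edgeR's quasi-likelihood test with Benjamini-Hochberg adjustment over all genes tested, and every adjusted p below comes from that test unless another is named. In total RNA, fewer cells that express a gene and less of its RNA per cell cannot be told apart.

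**Figure D1:**
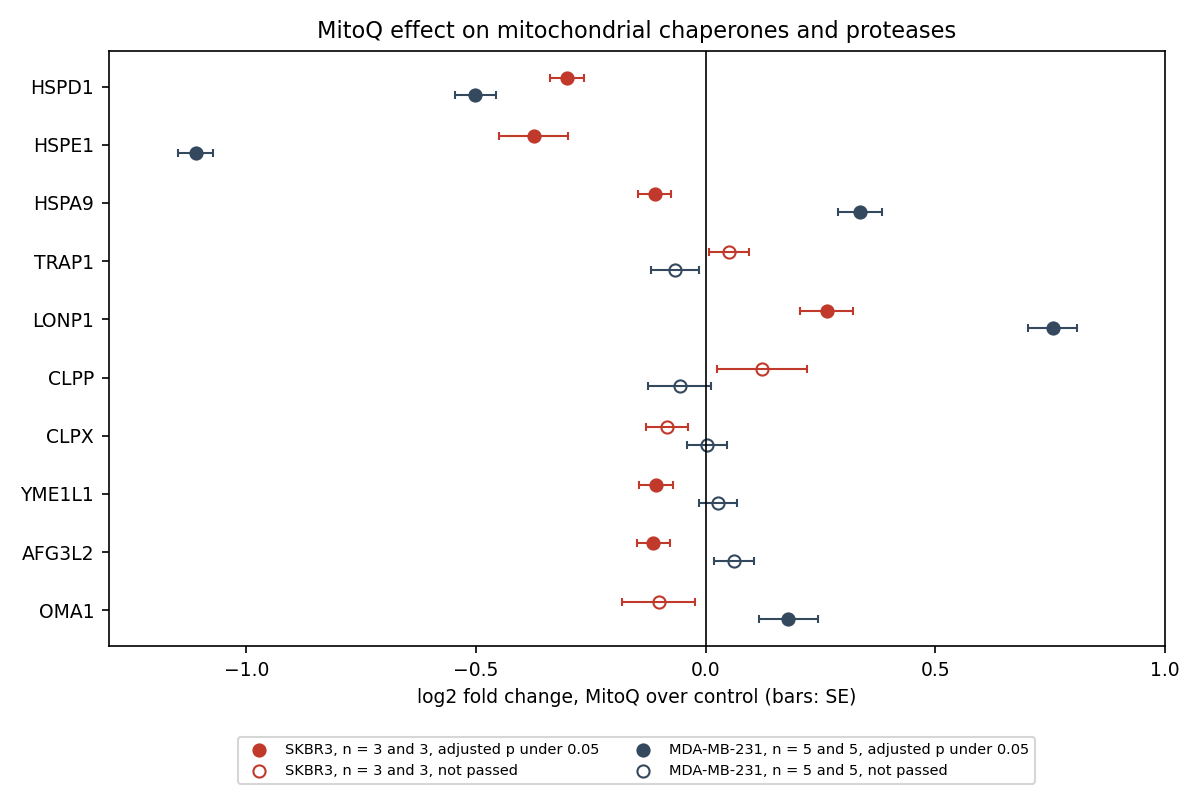
Log2 fold change of MitoQ over control (horizontal axis) for each of the 10 genes, with its SE as a bar, SKBR3 in red and MDA-MB-231 in dark blue. Filled points had an adjusted p under 0.05; LONP1 lies right of 0 in both lines, HSPD1 and HSPE1 left of 0 in both, and HSPA9 on opposite sides.

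The chaperonin and its lid fell in both lines. HSPD1, the subunit of the folding chamber, had 556.6, 549.9 and 564 CPM in SKBR3 MitoQ libraries and 693.2, 697.1 and 669.2 CPM in SKBR3 controls. In MDA-MB-231 it had 810, 888.2, 784.6, 802.8 and 781.1 CPM in MitoQ libraries and 1121.2, 1190.7, 1162.8, 1120.2 and 1160.9 CPM in controls. Every MitoQ library lay under every control of its line, and MDA-MB-231 MitoQ replicate 2 lay above the other 4 of its group. The log2 change was -0.30 ± 0.036 (SE) in SKBR3, 1.23-fold lower, with an adjusted p of 4.24e-05, and -0.50 ± 0.045 in MDA-MB-231, 1.42-fold lower, with an adjusted p of 1.83e-08; without MitoQ replicate 2 the MDA-MB-231 change was -0.52 and stayed called.

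HSPE1, the lid that closes the chamber, had 107.5, 111.7 and 110.7 CPM in SKBR3 MitoQ libraries and 162.6, 135.2 and 130.7 CPM in SKBR3 controls. In MDA-MB-231 it had 116.9, 118.2, 117.1, 115.1 and 114.2 CPM in MitoQ libraries and 247.8, 246.7, 255.6, 248.1 and 257.9 CPM in controls. The groups did not overlap in either line, and SKBR3 control replicate 1 lay above the other SKBR3 controls. The log2 change was -0.37 ± 0.074 (SE) in SKBR3, 1.30-fold lower (adjusted p = 0.0052), and -1.11 ± 0.039 in MDA-MB-231, 2.16-fold lower (adjusted p = 2.07e-14), the largest change among the 10 genes in either line. Tested against a fold of 1.2 instead of no change, both genes remained called in MDA-MB-231, and neither passed in SKBR3, with adjusted p of 0.531 for HSPD1 and 0.351 for HSPE1.

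The proportion of the pair differed between MitoQ and control libraries of MDA-MB-231, while the SKBR3 groups overlapped. The ratio of HSPD1 to HSPE1 counts within a library, which no scaling between libraries can move, was 5.18, 4.92 and 5.09 in SKBR3 MitoQ libraries and 4.26, 5.16 and 5.12 in SKBR3 controls, and control replicate 1 was the lowest. It was 6.93, 7.51, 6.70, 6.97 and 6.84 in MDA-MB-231 MitoQ libraries and 4.52, 4.83, 4.55, 4.52 and 4.50 in MDA-MB-231 controls, where the groups did not overlap. The means were 5.06 ± 0.13 and 4.85 ± 0.51 (SD, n = 3 each) in SKBR3, MitoQ and control, and 6.99 ± 0.31 and 4.58 ± 0.14 (SD, n = 5 each) in MDA-MB-231. The ratio is given as a description and was not tested.

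Processed copies and overlapping transcripts could share reads with this pair. Of the 31-base stretches of HSPD1 transcripts 31.35% were also found in transcripts annotated to another gene; the share was 27.19% for HSPE1, while LONP1 had the lowest share of the 10 genes at 3.39%. The 17 rows of HSPD1 pseudogenes summed to at most 1.219% of the HSPD1 count in any library, and the 26 rows of HSPE1 pseudogenes to at most 2.923% of the HSPE1 count. The readthrough transcript HSPE1-MOB4 held at most 1.618% of the HSPE1 count. Whether the counting used strand is not given in the sources used here, so reads from overlapping opposite genes may be mixed. Such pairs include HSPD1 with HSPE1, TRAP1 with DNASE1, LONP1 with RPL36, YME1L1 with MASTL and AFG3L2 with TUBB6. Among genes named below they include DDIT3 with MARS and PRELID1 with MXD3. The share of 31-base stretches found in other genes was 69.41% for PRELID1, 41.53% for PARL, 34.87% for FOXO3, 29.73% for ATF4 and 28.94% for DDIT3.

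**Figure D2:**
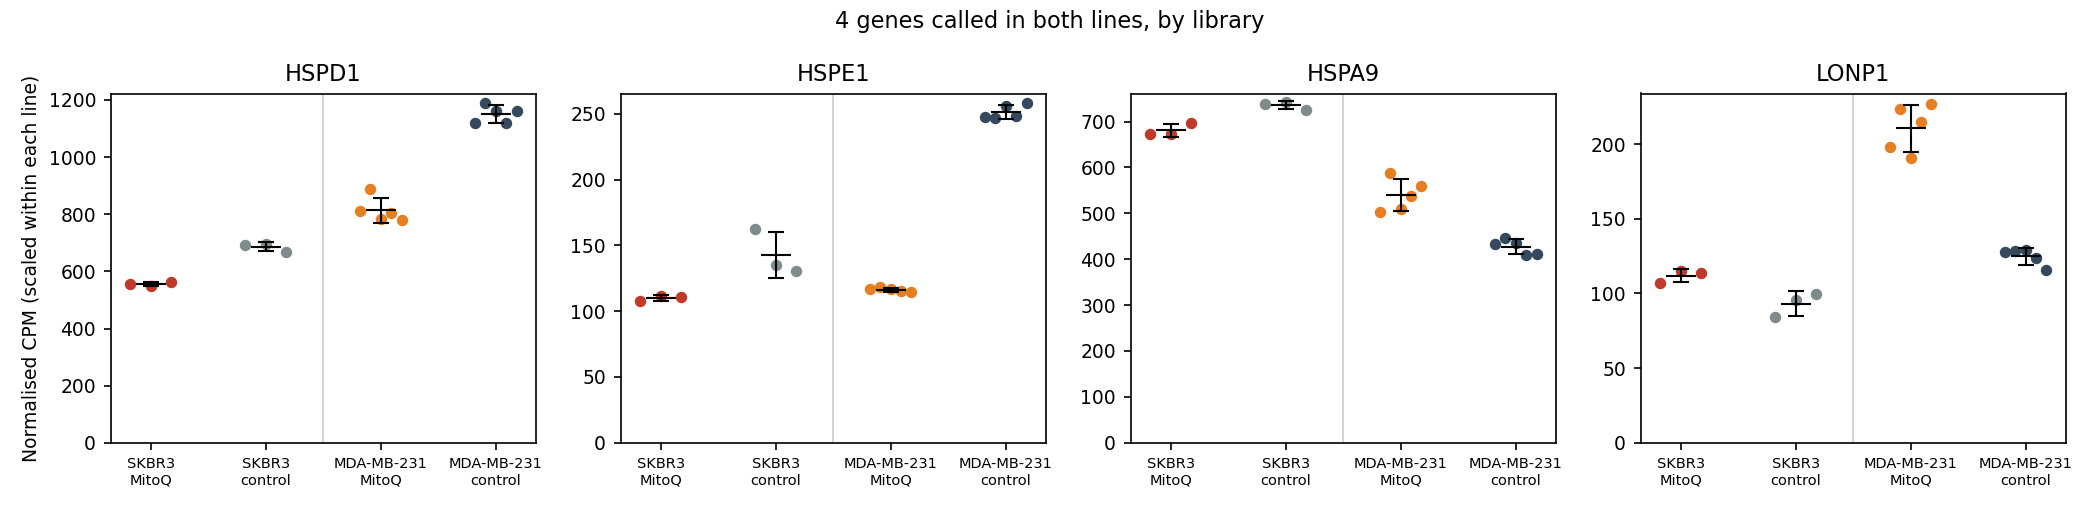
Normalised CPM, scaled within each line, of HSPD1, HSPE1, HSPA9 and LONP1 in every library (points), with the mean and SD of each group (bars), MitoQ left of control. The genes shown are those of the list that passed the test in both lines. MitoQ and control libraries of a line do not overlap in any of the 8 pairs. Of all genes tested, 42% in SKBR3 and 43.7% in MDA-MB-231 show no overlap. HSPA9 lies lower with MitoQ in SKBR3 and higher in MDA-MB-231.

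The HSP70-type chaperone HSPA9, the motor that draws proteins through the inner membrane, moved in opposite directions. It had 674, 672 and 697.9 CPM in SKBR3 MitoQ libraries and 739, 742.4 and 726.2 CPM in SKBR3 controls, with no overlap and MitoQ lower. In MDA-MB-231 it had 502.9, 587.2, 510.2, 537 and 560 CPM in MitoQ libraries and 434.1, 447.1, 435.1, 408.5 and 411.3 CPM in controls, with no overlap and MitoQ higher. The log2 change was -0.11 ± 0.036 (SE) in SKBR3 (1.08-fold lower, adjusted p = 0.0316) and 0.34 ± 0.049 in MDA-MB-231 (1.26-fold higher, adjusted p = 8.39e-06). The SKBR3 call was lost without control replicate 1 (adjusted p = 0.0731), 2 (0.174) or 3 (0.0558) and without MitoQ replicate 1 (0.16) or 2 (0.245). Against a fold of 1.2 the MDA-MB-231 change had an adjusted p of 0.0723.

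TRAP1, the HSP90-type chaperone of the matrix, did not pass in either line. It had 195.2, 196.1 and 198.9 CPM in SKBR3 MitoQ libraries and 182.7, 183.3 and 202.8 CPM in SKBR3 controls, where control replicate 3 lay above all MitoQ libraries. In MDA-MB-231 it ranged between 71.8 and 85.9 CPM in MitoQ libraries and between 78 and 87.5 CPM in controls. The log2 change was 0.051 ± 0.043 (SE) in SKBR3 (adjusted p = 0.427) and -0.066 ± 0.053 in MDA-MB-231 (adjusted p = 0.30). Without SKBR3 control replicate 3 it passed in SKBR3, at a log2 change of 0.12 and an adjusted p of 0.0233.

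LONP1, the ATP-driven protease that clears damaged matrix proteins, rose in both lines. It had 107.2, 115.1 and 113.5 CPM in SKBR3 MitoQ libraries and 84, 95.5 and 99.9 CPM in SKBR3 controls. In MDA-MB-231 it had 197.7, 223.2, 190.9, 214.6 and 226.7 CPM in MitoQ libraries and 127.7, 128.1, 128.8, 123.5 and 115.6 CPM in controls. Every MitoQ library lay above every control of its line. The log2 change was 0.26 ± 0.058 (SE) in SKBR3, 1.2-fold higher (adjusted p = 0.00416), and 0.76 ± 0.053 in MDA-MB-231, 1.69-fold higher (adjusted p = 5.04e-10). Against a fold of 1.2 the adjusted p was 1 in SKBR3, and the MDA-MB-231 call remained.

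The other matrix protease, formed by the unfoldase CLPX and the peptidase CLPP, did not pass in either line for either gene. CLPX had 65.9, 71.4 and 66.2 CPM in SKBR3 MitoQ libraries and 71.7, 72.5 and 72.1 CPM in SKBR3 controls. The SKBR3 groups of CLPX did not overlap, yet the log2 change of -0.085 ± 0.046 (SE) had an adjusted p of 0.193. In MDA-MB-231 its log2 change was 0.0037 ± 0.043 (adjusted p = 0.951), and both groups lay between 71.8 and 78.7 CPM. CLPP lay between 33.1 and 40.5 CPM in SKBR3 MitoQ libraries and between 29.5 and 37 CPM in SKBR3 controls, and between 34.2 and 44.2 CPM in MDA-MB-231 MitoQ libraries and 38.1 and 44.5 CPM in MDA-MB-231 controls. Its log2 change was 0.12 ± 0.099 in SKBR3 (adjusted p = 0.409) and -0.056 ± 0.068 in MDA-MB-231 (adjusted p = 0.505), with overlap in both lines. Without SKBR3 control replicate 3 CLPP passed in SKBR3, at 0.26 (adjusted p = 0.0287). The count ratio of CLPX to CLPP averaged 1.91 ± 0.26 in SKBR3 MitoQ libraries and 2.25 ± 0.27 in SKBR3 controls (SD, n = 3 each), and 1.96 ± 0.24 in MDA-MB-231 MitoQ libraries and 1.87 ± 0.13 in MDA-MB-231 controls (SD, n = 5 each), so the groups overlapped in both lines.

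The inner membrane proteases moved little. AFG3L2, the subunit of the protease that faces the matrix, had 135, 132.2 and 133.1 CPM in SKBR3 MitoQ libraries and 144.4, 144.2 and 144.4 CPM in SKBR3 controls, without overlap. Its log2 change in SKBR3 was -0.11 ± 0.036 (SE; adjusted p = 0.0282). YME1L1, whose active site faces the intermembrane space, had 187.5, 192 and 195.2 CPM in SKBR3 MitoQ libraries and 212.8, 203.4 and 202.9 CPM in SKBR3 controls, again without overlap. Its log2 change in SKBR3 was -0.11 ± 0.037 (adjusted p = 0.0428). Both SKBR3 calls were lost when any 1 of the 6 libraries was left out, with adjusted p of 0.0601 to 0.198 for AFG3L2 and 0.0581 to 0.236 for YME1L1. In MDA-MB-231 the groups overlapped for both genes, at 114.9 to 125 CPM in MitoQ libraries and 111 to 123 CPM in controls for AFG3L2, and 280.6 to 308.8 CPM in MitoQ libraries and 280.6 to 293.1 CPM in controls for YME1L1. Their log2 changes there were 0.062 ± 0.043 (adjusted p = 0.232) and 0.027 ± 0.041 (adjusted p = 0.603); with plain library totals as the scaling, AFG3L2 passed at 0.12 (adjusted p = 0.0157).

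OMA1, the stress-activated protease that cuts OPA1 and DELE1, had 20.9, 21.1 and 17.9 CPM in SKBR3 MitoQ libraries and 21.1, 23.2 and 20.5 CPM in SKBR3 controls. In MDA-MB-231 it had 17.6, 17.7, 17.1, 15.5 and 16.5 CPM in MitoQ libraries and 13.8, 14.9, 15.9, 14.8 and 15 CPM in controls. The groups overlapped in both lines, in MDA-MB-231 through MitoQ replicate 4 and control replicate 3. The log2 change was -0.10 ± 0.079 (SE) in SKBR3 (adjusted p = 0.381) and 0.18 ± 0.064 in MDA-MB-231 (1.13-fold higher, adjusted p = 0.021). The MDA-MB-231 call was lost without control replicate 1 (adjusted p = 0.0637), without MitoQ replicate 1 (0.0521), without a filter on low counts (0.0645) and with limma voom (0.0857).

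Over the 10 genes, the groups did not overlap for 7 in SKBR3, where 42% of all genes tested showed no overlap, and for 4 in MDA-MB-231, where 43.7% did.

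AFG3L2 also forms mixed rings with SPG7, its partner subunit, which fell in MDA-MB-231 and did not pass in SKBR3. SPG7 averaged 83.4 ± 7.79 CPM in SKBR3 MitoQ libraries and 86.7 ± 0.72 CPM in SKBR3 controls (SD, n = 3 each; adjusted p = 0.555), and 84.5 ± 4.56 CPM in MDA-MB-231 MitoQ libraries and 112.8 ± 9.01 CPM in MDA-MB-231 controls (SD, n = 5 each), a log2 change of -0.42 (adjusted p = 3.36e-06). The difference between the lines was 0.41 (adjusted p = 0.00117). The count ratio of AFG3L2 to SPG7 was 1.51, 1.53 and 1.79 in SKBR3 MitoQ libraries and 1.67, 1.65 and 1.68 in SKBR3 controls. In MDA-MB-231 it was 1.31, 1.55, 1.43, 1.40 and 1.46 in MitoQ libraries and 1.02, 1.18, 1.10, 0.922 and 0.927 in controls. The ratio groups overlapped in SKBR3 and not in MDA-MB-231. The count ratio of OMA1 to YME1L1, which cut OPA1 at different sites, averaged 0.104 ± 0.011 in SKBR3 MitoQ libraries and 0.105 ± 0.008 in SKBR3 controls (SD, n = 3 each), and 0.0576 ± 0.0022 in MDA-MB-231 MitoQ libraries and 0.0517 ± 0.0021 in MDA-MB-231 controls (SD, n = 5 each), with overlap in both lines.

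**Figure D3:**
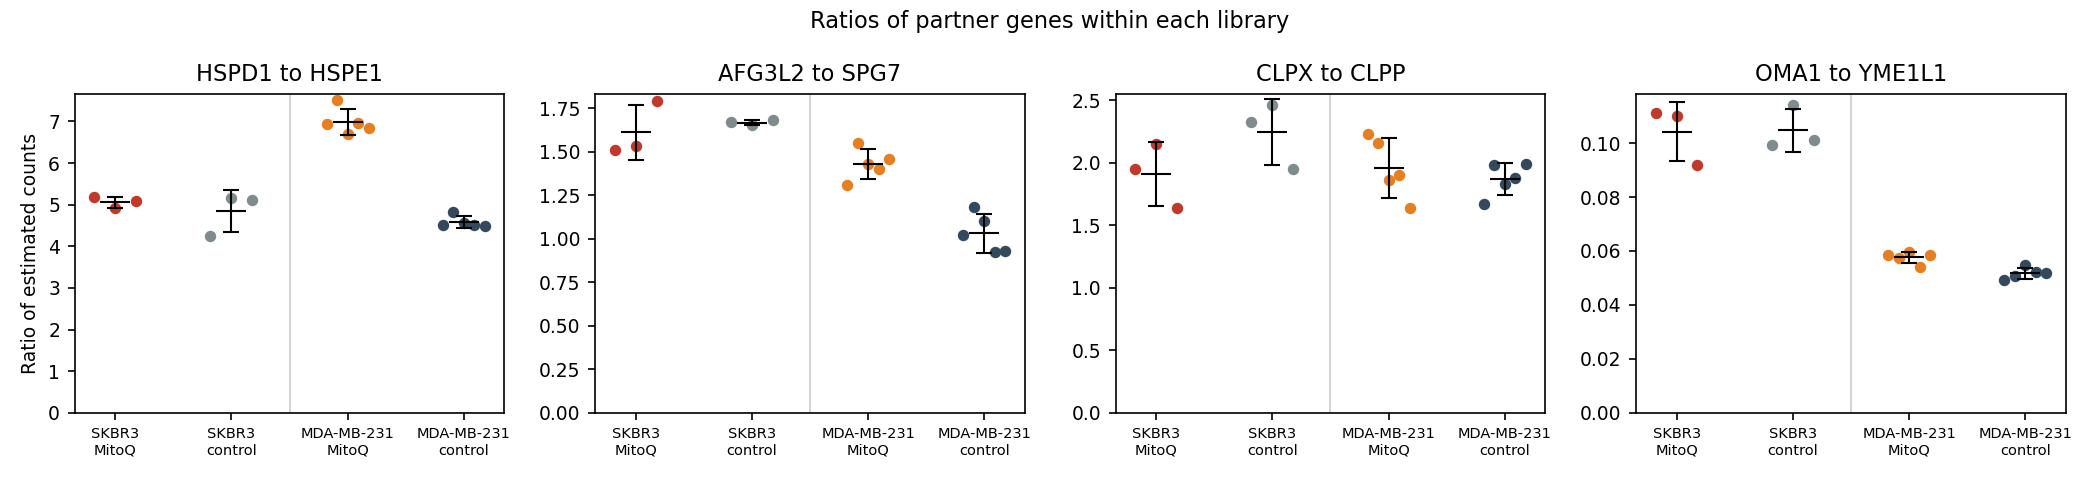
Ratio of estimated counts within each library (points) for 4 pairs of partner genes, with the mean and SD of each group (bars), MitoQ left of control. The HSPD1 to HSPE1 and AFG3L2 to SPG7 ratios lie higher in all MDA-MB-231 MitoQ libraries than in all MDA-MB-231 controls, while the SKBR3 groups overlap in each panel.

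The MitoQ effect differed between the lines for 4 of the 10 genes, where the test of the difference passed for 34.1% of 17094 genes, 19.1% with a positive and 14.9% with a negative difference. The difference is the log2 change in SKBR3 minus that in MDA-MB-231, fitted over all 16 libraries. It was 0.78 ± 0.075 (SE) for HSPE1 (adjusted p = 1.86e-08) and 0.24 ± 0.061 for HSPD1 (adjusted p = 0.00314), both of which fell less in SKBR3. It was -0.45 ± 0.089 for LONP1 (adjusted p = 3.13e-04), which rose less in SKBR3, and -0.40 ± 0.069 for HSPA9 (adjusted p = 6.13e-05), whose directions were opposite. The other 6 did not pass, with adjusted p of 0.0884 for AFG3L2, 0.213 for CLPP, 0.645 for CLPX, 0.0645 for OMA1, 0.135 for TRAP1 and 0.254 for YME1L1.

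Scaling bore on this comparison: of all genes called, 56.1% had a positive difference, and 41.6% with plain library totals. With plain totals the HSPD1 difference was 0.15 (adjusted p = 0.0635), and YME1L1 (adjusted p = 0.0163), AFG3L2 (0.00442) and OMA1 (0.0182) passed with a negative difference. OMA1 also passed with DESeq2 size factors (adjusted p = 0.0466), a filter at 1 CPM (0.0392) and mitochondrially encoded genes left out (0.043). AFG3L2 also passed with DESeq2 (0.0251), limma voom (0.0404) and a filter at 1 CPM (0.0344), and TRAP1 with limma voom (0.0448). With 1 library left out, OMA1 passed without MDA-MB-231 MitoQ replicate 4 (0.0436) and CLPP without SKBR3 control replicate 3 (0.0388). TRAP1 passed without MDA-MB-231 MitoQ replicate 5 (0.0417) or SKBR3 control replicate 3 (0.032).

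The control cells of the lines differed in most of these genes, about as often as in all genes tested. Between SKBR3 and MDA-MB-231 controls, 86.5% of 16398 genes tested differed, and 9 of the 10 genes did, 4 higher and 5 lower in SKBR3, where 42% of all genes tested were higher and 44.4% lower. TRAP1 averaged 187.1 ± 13.2 CPM in SKBR3 controls (SD, n = 3) and 82.1 ± 3.29 CPM in MDA-MB-231 controls (SD, n = 5), a log2 difference of 1.19 (adjusted p = 3.81e-16). HSPA9 (0.79), OMA1 (0.54) and AFG3L2 (0.32) were also higher in SKBR3, on the log2 scale. HSPE1 averaged 140.8 ± 16.5 CPM in SKBR3 controls (SD, n = 3) and 247.5 ± 5.85 CPM in MDA-MB-231 controls (SD, n = 5), a log2 difference of -0.81 (adjusted p = 1.01e-10). HSPD1 (-0.74), YME1L1 (-0.47), LONP1 (-0.42) and CLPP (-0.30) were lower in SKBR3 as well, and CLPX (-0.058, adjusted p = 0.202) did not pass. Line and passage cannot be told apart, and these controls are the ones the MitoQ libraries were compared with, so no relation between the line difference and the MitoQ effect is given.

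Set against each other per length, the genes span a wide range of levels. On the scale of CPM per kilobase of transcript, HSPD1 led in all 4 groups, with 226.8 in SKBR3 MitoQ libraries, 279.6 in SKBR3 controls, 331.3 in MDA-MB-231 MitoQ libraries and 468.9 in MDA-MB-231 controls. OMA1 was lowest in all 4, with 10.3, 11.2, 8.71 and 7.68 in the same groups, and CLPX next, with 14.5, 15.4, 16.1 and 16.

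Between these ends, the order differed between lines and with MitoQ. In MDA-MB-231 controls HSPE1 (264.4) was followed by HSPA9 (90.4), YME1L1 (74.5), LONP1 (38.5), TRAP1 (36.3), AFG3L2 (35.6) and CLPP (34.9), where each of the last 4 overlapped its neighbour. In MDA-MB-231 MitoQ libraries HSPE1 (122.4) and HSPA9 (114.1) overlapped, YME1L1 (75.9) and LONP1 (65.1) each stood clear of their neighbours, and AFG3L2 (37.1), TRAP1 (34.7) and CLPP (33.6) overlapped. In SKBR3 controls HSPA9 (155.7) and HSPE1 (150.3) overlapped, and TRAP1 (82.6) lay above YME1L1 (53.5), AFG3L2 (44.5), LONP1 (28.8) and CLPP (28.0). In SKBR3 MitoQ libraries HSPA9 (144.1), HSPE1 (115.8), TRAP1 (85.7), YME1L1 (49.7) and AFG3L2 (41.1) followed HSPD1 without overlap, and LONP1 (34.6) and CLPP (30.9) overlapped. Divided by coding length instead, HSPE1 ranked first in both SKBR3 groups and in MDA-MB-231 controls. HSPD1 then led only in MDA-MB-231 MitoQ libraries, and OMA1 stayed lowest in every group. CLPX was next to lowest only in SKBR3 MitoQ libraries. TRAP1 took that place in both MDA-MB-231 groups and LONP1 in SKBR3 controls.

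**Figure D4:**
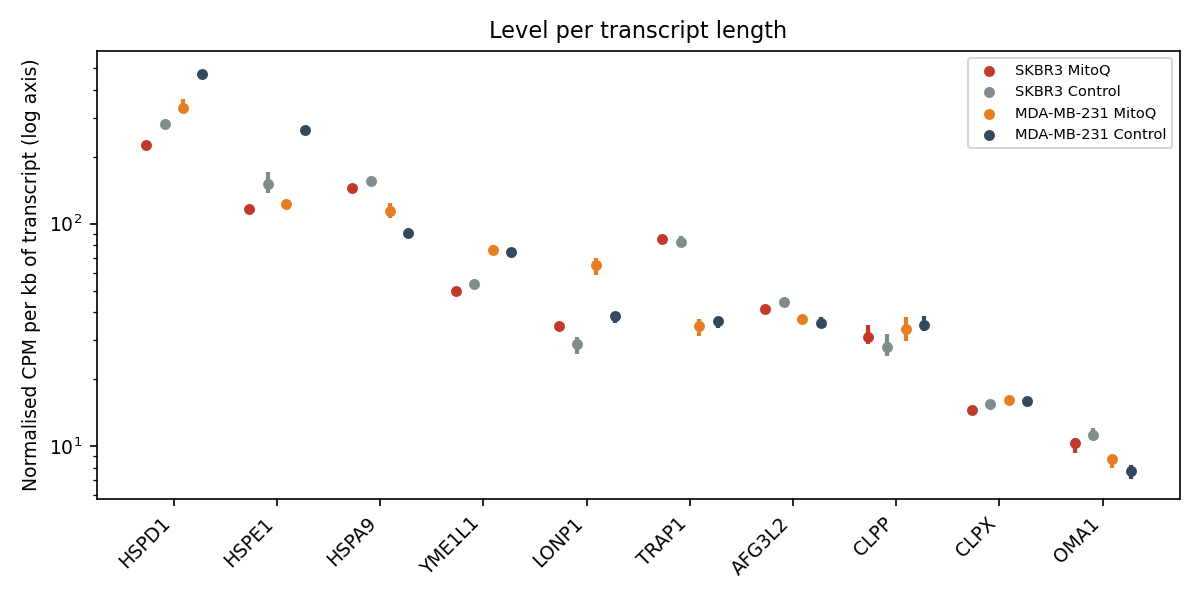
Mean level of each gene per kilobase of transcript (normalised CPM per kb, log axis) in the 4 groups, with the lowest and highest library as a line, ordered by the MDA-MB-231 controls. HSPD1 is highest and OMA1 lowest in every group, and LONP1 is higher in MDA-MB-231 MitoQ libraries, at 65.1, than in the other groups.

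The regulators linked to the mitochondrial unfolded protein response were examined as a list of 10. In SKBR3, 4 of them passed higher, 1 lower and 5 did not pass, with a median log2 change of 0.050, where 13.8% of all genes tested were higher and 14.1% lower. In MDA-MB-231, 5 passed higher, 3 lower and 2 did not pass, with a median of 0.16, where 29.9% of all genes tested were higher and 27.6% lower. ATF4, the transcription factor at the centre of the integrated stress response, averaged 217.2 ± 6.14 CPM in SKBR3 MitoQ libraries and 200.4 ± 1.73 CPM in SKBR3 controls (SD, n = 3 each), a log2 change of 0.12 (adjusted p = 0.0279). In MDA-MB-231 ATF4 averaged 460.2 ± 37.2 CPM in MitoQ libraries and 258.7 ± 9.53 CPM in controls (SD, n = 5 each), a log2 change of 0.83 (adjusted p = 1.66e-10). DDIT3, the factor CHOP, rose by 0.42 on the log2 scale in SKBR3, where its groups overlapped (adjusted p = 0.0463), and 1.58 in MDA-MB-231 (adjusted p = 2.14e-11), and CEBPB, a partner of such factors, by 0.28 (adjusted p = 0.00862) and 1.5 (adjusted p = 7.69e-13). For all 3 the rise was smaller in SKBR3, by a difference of -0.67 for ATF4, -1.11 for DDIT3 and -1.18 for CEBPB (adjusted p of 6.04e-07, 4.09e-05 and 5.71e-08).

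Several of the SKBR3 calls on regulators depended on single libraries or on the fit. ATF4 did not pass without SKBR3 control replicate 1 (adjusted p = 0.0602) or 2 (0.0545), or MitoQ replicate 2 (0.0689) or 3 (0.113). DDIT3 did not pass without control replicate 1 (0.0911), 2 (0.0576) or 3 (0.119), or MitoQ replicate 2 (0.194) or 3 (0.137), nor with DESeq2 (0.0894). In 1 fit over all libraries the adjusted p was 0.157 for ATF4 and 0.0519 for DDIT3. HSF1, the heat shock factor, rose by 0.22 in SKBR3 (adjusted p = 0.0285) and 0.21 in MDA-MB-231 (adjusted p = 0.00287), and its SKBR3 call was lost without control replicate 1 (0.0998) or 2 (0.0787), or MitoQ replicate 1 (0.0711) or 3 (0.102).

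Other regulators moved less or lower. ATF5, the mammalian factor likened to the worm regulator of this response, had a log2 change of -0.064 in SKBR3 (adjusted p = 0.575). It fell by 0.25 in MDA-MB-231 (adjusted p = 0.00146), where its groups overlapped. DELE1 and EIF2AK1, which relay mitochondrial stress to ATF4, had log2 changes of -0.034 (adjusted p = 0.668) and -0.036 (0.532) in SKBR3, and fell in MDA-MB-231, at -0.18 (0.00806) and -0.25 (1.11e-04). With plain library totals the adjusted p of DELE1 in MDA-MB-231 was 0.0727. FOXO3 had -0.015 in SKBR3 (0.871) and rose by 0.20 in MDA-MB-231 (4.37e-04), and SIRT3, a matrix deacetylase, passed in neither line, at 0.13 (0.338) and 0.12 (0.249). SSBP1, the single-stranded DNA-binding protein of mitochondria, fell by 0.54 in SKBR3 (0.00862) and had -0.18 in MDA-MB-231 (0.0756), where it passed without control replicate 1 (0.00616) or MitoQ replicate 2 (0.0499).

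Of 8 genes whose proteins are cut or degraded by these proteases, 0 passed edgeR's test higher, 4 lower and 4 did not pass in SKBR3 (median -0.13), and 1 passed higher, 4 lower and 3 did not pass in MDA-MB-231 (median -0.18); of all genes tested, 28% in SKBR3 and 57.5% in MDA-MB-231 passed in either direction. For SKBR3, DESeq2, limma voom and an unadjusted p under 0.05 in edgeR also gave 0 higher. TIMM17A, an import subunit degraded by YME1L1, fell by 0.35 in SKBR3 (adjusted p = 4.24e-05) and 0.50 in MDA-MB-231 (adjusted p = 2.74e-06). OPA1, the inner membrane fusion protein, fell by 0.21 in both lines (adjusted p of 0.00102 in SKBR3 and 7.02e-04 in MDA-MB-231). TFAM, the DNA-packaging factor degraded by LONP1, fell by 0.25 in SKBR3 (adjusted p = 4.12e-04) and had -0.15 in MDA-MB-231 (0.0828). In MDA-MB-231 it passed with limma voom (0.00171), in 1 fit over all libraries (0.018) and without MitoQ replicate 2 (0.00233). STARD7, a lipid carrier, fell by 0.16 in SKBR3 (0.00301) and had 0.012 in MDA-MB-231 (0.84). In 1 fit over all libraries the SKBR3 call of STARD7 was lost (0.0543). PGAM5, a phosphatase, had -0.11 in SKBR3 (0.106) and fell by 0.35 in MDA-MB-231 (2.56e-05), and PRELID1, a lipid carrier degraded by YME1L1, had -0.029 (0.683) and fell by 0.25 (4.27e-04). ALAS1, the first enzyme of haem synthesis, had -0.036 in SKBR3 (0.725) and was the 1 gene of this list to rise in MDA-MB-231, by 0.56 (8.46e-09).

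Of 10 other mitochondrial chaperones, 0 passed edgeR's test higher and 4 lower in SKBR3 (median -0.010), and 2 higher and 3 lower in MDA-MB-231 (median -0.094). GRPEL1, the nucleotide exchange factor of HSPA9, fell by 0.22 in SKBR3 (adjusted p = 0.00896) and 0.37 in MDA-MB-231 (4.21e-06). PHB, a prohibitin that forms a ring around the AFG3L2 protease, had -0.0012 in SKBR3 (0.992) and fell by 0.73 in MDA-MB-231 (3.17e-09). CLPB, a disaggregase, fell by 0.16 in SKBR3 (0.00887) and had -0.043 in MDA-MB-231 (0.482). Of 14 other mitochondrial proteases, 0 passed higher and 3 lower in SKBR3 (median -0.092), and 2 higher and 6 lower in MDA-MB-231 (median -0.14). The shares of all genes called in either direction, 28% in SKBR3 and 57.5% in MDA-MB-231, are the background for both lists, and the shares called in MDA-MB-231 lay near it. At an unadjusted p under 0.05 in edgeR, 1 gene of each of these 2 lists was higher in SKBR3, and DESeq2 and limma voom called 0 in each. PARL, the rhomboid protease, fell by 0.41 in SKBR3 (1.97e-05) and had -0.064 in MDA-MB-231 (0.293), IMMP2L, an inner membrane peptidase, had 0.17 (0.234) and rose by 0.53 (6.88e-07), and NLN, a peptidase, fell by 0.20 (0.00474) and had -0.0043 (0.95). Without SKBR3 MitoQ replicate 2 the SKBR3 calls of GRPEL1 (0.0918), CLPB (0.0884) and NLN (0.0646) were lost. CLPB also lost its SKBR3 call in 1 fit over all libraries (0.0695).

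Of the 10 cytosolic chaperones listed, all 8 tested in MDA-MB-231 passed lower, with a median log2 change of -0.57. Of all genes tested there, 27.6% were lower. HSPA1A and HSPA1B did not pass the filter on low counts in MDA-MB-231, nor did HSPA1A in SKBR3, so these counts leave them out. In SKBR3, of 9 tested, 1 passed higher, 3 lower and 5 did not pass (median -0.090), where 14.1% of all genes tested were lower. HSPA8, the constitutive HSP70-type chaperone, had -0.090 in SKBR3 (adjusted p = 0.145) and fell by 0.82 in MDA-MB-231 (1.01e-11), and its partner DNAJA1 had -0.10 (0.101) and fell by 0.69 (8.61e-11). Without SKBR3 control replicate 3 both passed in SKBR3, at adjusted p of 0.0429 for HSPA8 and 0.0164 for DNAJA1. HSPA4, an exchange factor, fell by 0.22 in SKBR3 (6.5e-04) and 0.44 in MDA-MB-231 (1.29e-07). HSPB1, a small heat shock protein, rose by 0.76 in SKBR3 (4.84e-05) and fell by 0.71 in MDA-MB-231 (2e-04), with a difference between the lines of 1.52 (adjusted p = 1.23e-05).

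**Figure D5:**
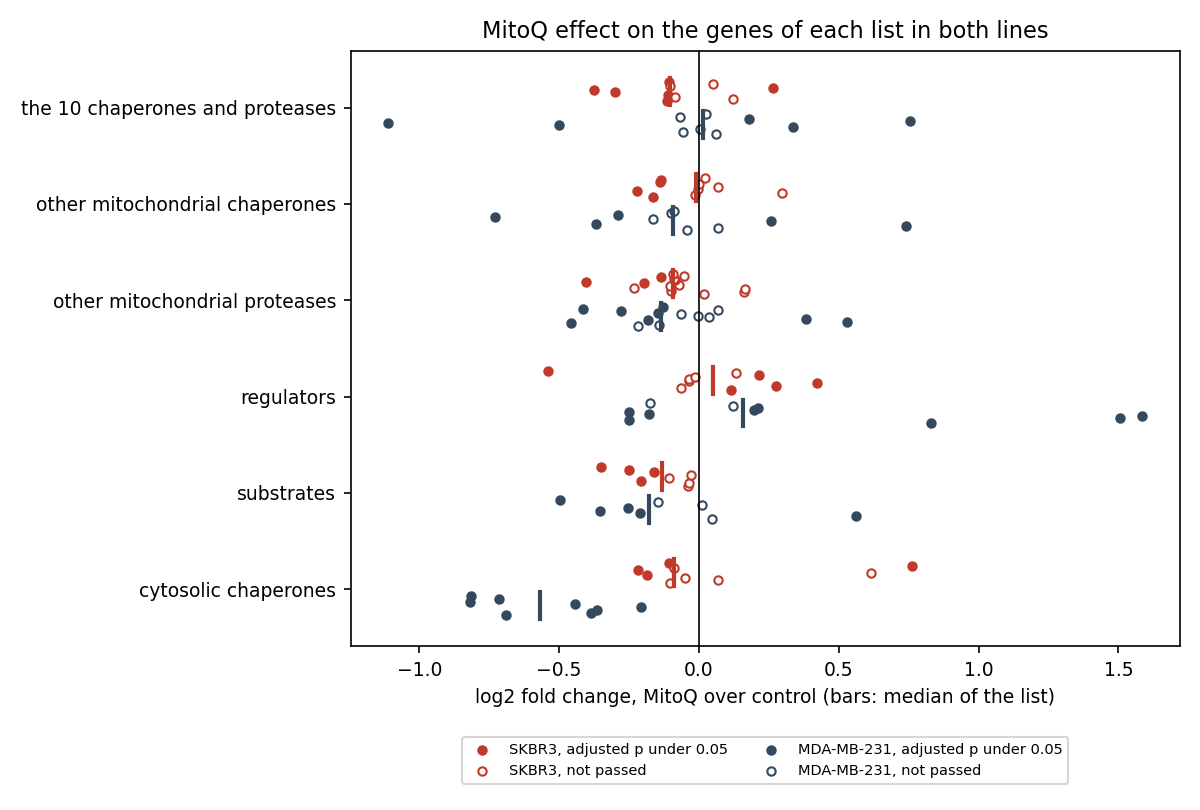
Log2 fold change of MitoQ over control (horizontal axis) for every tested gene of the 10 chaperones and proteases and of 5 further lists, SKBR3 in red and MDA-MB-231 in dark blue, filled where the adjusted p was under 0.05, with a bar at the median of each list. The cytosolic chaperones lie left of 0 in MDA-MB-231, with a median of -0.57, and the 3 regulators farthest right in MDA-MB-231 are ATF4, CEBPB and DDIT3.

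Genes most like HSPD1 and LONP1 were ranked by the root mean square difference in log2 CPM over the 16 libraries, each set to the control mean of its line, among 13021 protein-coding genes. Nearest to HSPD1 were UTP20 (0.0377), LNPK (0.0487) and PDS5B (0.0501), while HSPE1, its own partner, ranked 5858 (0.348). TRAP1 (4401), CLPX (4459), YME1L1 (4672), AFG3L2 (5282) and CLPP (5826) ranked nearer to HSPD1. OMA1 (7286), HSPA9 (9165) and LONP1 (11949) ranked farther. The distance counts the size of a change as well as its direction, and HSPE1 fell more than HSPD1 in both lines. Nearest to LONP1 were PIEZO1 (0.0669), RUSC2 (0.072) and PACS2 (0.076), while HSPA9 ranked 1723 (0.292), HSPD1 11764 (0.749) and HSPE1 12775 (1.09). The measure takes in both treatment comparisons, so genes near each other have similar log2 changes by construction. The changes were -0.28 in SKBR3 and -0.54 in MDA-MB-231 for UTP20, and 0.25 in SKBR3 and 0.78 in MDA-MB-231 for PIEZO1.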

How the data were processed

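RNA from SKBR3 and MDA-MB-231 cells was sequenced in 16 libraries. The estimated counts per gene were used as deposited; they were whole numbers, so no rounding was needed. Salmon, edgeR and the build GRCh38 are named per the submitters' processing notes, without versions or roles. Of 35106 rows, 8866 had no count and 35003 matched GENCODE 29. Groups are line and treatment. Column names of SKBR3 libraries also contain the number of MDA-MB-231; their titles and marker genes place them with SKBR3.

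The filter on low counts was filterByExpr and the scaling TMM. The test was the two-sided quasi-likelihood F test with robust spread of edgeR 4.0.16, run in R 4.3.3, with Benjamini-Hochberg adjustment over all genes tested and a threshold of 0.05. MitoQ was compared with control line by line, the line difference in effect was an interaction term in a fit of 16 libraries, and the 8 controls gave the comparison of lines. The SE is the absolute log2 change over the square root of F. CPM are scaled within each comparison. The test was checked on simulated data. The limit for a count of 0 covers counting error only.

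Named were the 10 genes, SPG7, all regulators and substrates except 1 substrate that is not reported here, and the 2 genes with the smallest p in each treatment comparison from each further list. The members and lists were chosen with earlier results of these data known. Alternatives were DESeq2 size factors, plain totals, DESeq2 1.42.0, limma 3.58.1 voom with quality weights, a filter at 1 CPM, no filter, mitochondrially encoded genes left out, a replicate block, 1 fit over all libraries, a test against 1.2-fold and each library left out. Adding pseudogene counts to their parent gene was chosen after seeing the data. Promoters and starts come from RefSeq (GRCh38.p14). Protein sequences were not used here.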

Additional observations from a re-analysis of the deposited data

Results flagged for a closer look

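Values were looked at in 78 groups of 5 libraries, and 3 held a library far from the others of its group; chance flags about 1 in 20 groups. HSPD1 was at 888.2 CPM in MDA-MB-231 MitoQ replicate 2, against 781.1 to 810 CPM in the other MitoQ libraries of that line. ALAS1 was at 61.3 CPM in MDA-MB-231 control replicate 4, against 67.5 to 69.2 CPM in the other controls. IMMP2L was at 13.5 CPM in MDA-MB-231 control replicate 5, against 12 to 12.1 CPM in the other controls.

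The MitoQ effect differed between the lines by edgeR's quasi-likelihood test of the difference, SKBR3 minus MDA-MB-231 on the log2 scale, for 20 of the 39 genes looked at, where 34.1% of 17094 genes passed; some of the 39 were taken for their small p in a treatment comparison. Among the 10 chaperones and proteases these were HSPE1 (0.779), HSPD1 (0.243), HSPA9 (-0.404) and LONP1 (-0.449). Among regulators they were ATF4 (-0.672), DDIT3 (-1.11), CEBPB (-1.18), EIF2AK1 (0.256) and FOXO3 (-0.169). Among substrates they were PGAM5 (0.291), PRELID1 (0.266) and ALAS1 (-0.556). Among other mitochondrial chaperones and proteases they were PHB (0.774), SPG7 (0.405), IMMP2L (-0.321) and PARL (-0.299), and among cytosolic chaperones HSPA8 (0.772), DNAJA1 (0.631), HSPB1 (1.52) and HSPA4 (0.27). With plain library totals PGAM5 (adjusted p = 0.0648) and PRELID1 (0.0735) did not pass.

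The FOXO3 difference did not pass with a replicate block (adjusted p = 0.0993), without a filter on low counts (0.172), or without MDA-MB-231 control replicate 1 (0.0794), 3 (0.0771), 4 (0.0917) or 5 (0.0651), MDA-MB-231 MitoQ replicate 2 (0.0582), 3 (0.0654), 4 (0.0828) or 5 (0.0708), or any 1 SKBR3 library (0.0574 to 0.165). The IMMP2L difference did not pass without a filter (0.0736), or without MDA-MB-231 control replicate 3 (0.0562), MDA-MB-231 MitoQ replicate 4 (0.0526), SKBR3 control replicate 1 (0.0523) or 2 (0.0776), or SKBR3 MitoQ replicate 1 (0.118).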

How the results depend on the processing

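No called change of the 10 genes changed sign under the alternatives run. CLPX and CLPP, which were not called in MDA-MB-231, and CLPX in the difference and between controls, had either sign. Of the planned values per gene and setting, 193 of 200 kept their call in MDA-MB-231, 124 of 160 in SKBR3, 225 of 240 in the difference and 159 of 160 between controls. Against a fold of 1.2, 4400 genes were called in MDA-MB-231 (8805 against no change), with 1 of the 10 genes higher instead of 3, and 472 genes in SKBR3 (4202 against no change), with 0 of the 10 genes higher or lower; at an unadjusted p under 0.05 that edgeR test called 0 higher and 1 lower, while DESeq2 and limma voom against no change called 1 higher and 3 and 5 lower. The 5 genes lower in SKBR3 became 3 with DESeq2 size factors and with DESeq2, and 2 without a filter and in 1 fit over all libraries (2788 genes called). In the difference, plain library totals left 1 of the 10 genes higher and 5 lower, and a filter at 1 CPM 4 lower, against 2 and 2. Leaving out 1 library gave 2565 to 4547 genes called in SKBR3 (2 to 3 of the 10 genes lower, 1 to 3 higher), 8296 to 9169 in MDA-MB-231 (2 lower, 2 to 3 higher), 5073 to 6212 in the difference (2 to 4 higher, 2 to 3 lower) and 13873 to 14093 between controls (4 higher, 5 lower). With a replicate block 4758 genes were called in SKBR3, 8363 in MDA-MB-231 and 5416 in the difference, with the counts of the 10 genes as without it; of the other genes named, SSBP1 passed with the block in MDA-MB-231 (adjusted p = 0.0392) and in the difference (0.0498), and FOXO3 lost its difference (0.0993). Libraries with the same number did not deviate together (correlations of -0.0069 to 0.076 in SKBR3 and -0.089 to 0.0049 in MDA-MB-231), and 1 of 3 SKBR3 and 0 of 5 MDA-MB-231 MitoQ libraries correlated best with their own number. The cause of these shifts was not tested.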
